A study of Mus musculus with 14 samples.

Results

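The genes described here encode the parts of the cell that receive and pass on the interleukin-4 (IL-4) signal: 3 receptor chains (Il4ra, Il13ra1, Il2rg), 4 receptor-bound kinases (Jak1, Jak2, Jak3, Tyk2), the transcription factor gene Stat6, the adaptor gene Irs2 and the phosphatase gene Ptpn6. They were chosen by name for their role in the pathway, with earlier results of these data known. They made up 10 of the 55487 gene identifiers counted. All 10 passed the filter on low counts that left 14754 genes for testing. Messenger RNA came from monocytes purified from mouse bone marrow, stated to be 90 to 95% pure by flow cytometry, and cultured ex vivo for 3 h. The series asked how these cells respond to IL-4 when the aryl hydrocarbon receptor (AhR), a ligand-activated transcription factor, is present or lacking.

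The 14 libraries formed 4 groups. Wild type in medium and wild type with 20 ng/mL of mouse IL-4 had 4 libraries each (numbers 1, 2, 3 and 7). AhR-deficient in medium and AhR-deficient with the same dose of IL-4 had 3 libraries each (numbers 4, 5 and 6). All groups shared the isolation, the culture and the time. The sources used here do not give strain, age, the altered Ahr allele, or whether a number is an animal or a pool, so p-values measure the spread between these samples, which may be technical. Total counts ran from 33432502 to 42885079 per library. Levels are given as CPM, a gene's counts scaled to the size of its library. In medium Ahr ran from 11.4 to 14.4 CPM in wild type and from 15.7 to 26.1 CPM in AhR-deficient, so it was not below wild type, and a gene count does not show whether a deleted part is missing. Xist was at 987 CPM or more in every AhR-deficient library and at 2.12 CPM or less in every wild-type library. The Y-linked Ddx3y was at 0 counts in AhR-deficient and averaged 132 ± 12.9 CPM (SD, n = 4) in wild type in medium. By these transcripts, genotype and sex cannot be told apart in any comparison between genotypes. All 10 monocyte markers were detected in every library, and their summed level was 23305 to 27059 CPM in medium and 14982 to 16633 CPM in IL-4. Of these sums Lyz2 alone made up 8148 to 17979 CPM over the 14 libraries. With IL-4, 7 of the 10 fell in wild type and 6 in AhR-deficient cells, against 16.5% and 14.2% of all genes. The part of the monocyte markers in the IL-4 responses was not tested. The 6 stromal markers summed to 21.4 to 34.0 CPM in wild type in medium and 141 to 179 CPM in IL-4, with 1 of the 5 tested passing, and Pecam1, which also marks other cells, reached 177 CPM while Cxcl12 stayed at 1.03 CPM or less. The 7 dendritic cell markers summed to 78.2 to 117 CPM and 123 to 151 CPM, with 1 of the 6 tested passing. Of all genes tested, 35.9% passed in wild type. The part of the stromal and dendritic cell markers was not tested either.

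IL-4 signals through a pair of receptor complexes. In the type I receptor the IL-4 binding chain IL-4Rα, from Il4ra, pairs with the common γ chain, from Il2rg, which carries JAK3. In the type II receptor, which also answers to IL-13, it pairs with IL-13Rα1, from Il13ra1, which carries TYK2 or JAK2. JAK1 binds IL-4Rα. The kinases phosphorylate the receptor, STAT6 docks and moves to the nucleus, and IRS2 couples the receptor to phosphoinositide 3-kinase. In monocytes and macrophages the pathway is known for driving alternative activation.

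Both chains that pair with IL-4Rα were lower after IL-4, while Jak2 and Irs2 were higher, in both genotypes. Il13ra1 lies on chromosome X at 36112110 to 36171259 (GRCm38, plus strand) and Il2rg on chromosome X at 101264378 to 101268255 (minus strand). Jak2 lies on chromosome 19 at 29251828 to 29313080 (plus strand) and Irs2 on chromosome 8 at 10984681 to 11008458 (minus strand). The promoters of these 4 genes are shown because they are the members that passed the test in the same direction in both genotypes. Each window runs from 250 bases before to 50 bases after the RefSeq transcription start (GRCm38.p6), 5′ to 3′ on the gene's strand, and that start can differ from the annotated gene end given above. The windows are chrX:36111858-36112157 (plus), chrX:101268206-101268505 (minus), chr19:29251553-29251852 (plus) and chr8:11008880-11009179 (minus). Capitals mark the core of the AhR binding element, GCGTG, or its reverse complement CACGC.
Il13ra1: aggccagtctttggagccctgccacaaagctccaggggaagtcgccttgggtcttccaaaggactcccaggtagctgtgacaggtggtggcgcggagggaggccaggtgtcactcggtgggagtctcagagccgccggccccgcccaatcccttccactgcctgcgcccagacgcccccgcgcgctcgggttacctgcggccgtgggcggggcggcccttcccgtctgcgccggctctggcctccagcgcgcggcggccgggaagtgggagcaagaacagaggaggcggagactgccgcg
Il2rg: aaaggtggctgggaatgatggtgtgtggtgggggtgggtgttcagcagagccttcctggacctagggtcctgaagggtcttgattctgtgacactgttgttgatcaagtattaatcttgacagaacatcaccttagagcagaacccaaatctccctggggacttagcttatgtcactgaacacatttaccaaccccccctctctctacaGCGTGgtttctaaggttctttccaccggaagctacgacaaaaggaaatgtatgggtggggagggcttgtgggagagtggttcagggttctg
Jak2: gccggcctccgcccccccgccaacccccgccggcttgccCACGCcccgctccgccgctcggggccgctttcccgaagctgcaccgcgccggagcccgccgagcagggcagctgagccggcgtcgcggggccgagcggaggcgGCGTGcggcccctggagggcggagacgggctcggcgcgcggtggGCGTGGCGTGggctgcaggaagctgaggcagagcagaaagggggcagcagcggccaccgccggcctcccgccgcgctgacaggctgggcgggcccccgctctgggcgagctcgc
Irs2: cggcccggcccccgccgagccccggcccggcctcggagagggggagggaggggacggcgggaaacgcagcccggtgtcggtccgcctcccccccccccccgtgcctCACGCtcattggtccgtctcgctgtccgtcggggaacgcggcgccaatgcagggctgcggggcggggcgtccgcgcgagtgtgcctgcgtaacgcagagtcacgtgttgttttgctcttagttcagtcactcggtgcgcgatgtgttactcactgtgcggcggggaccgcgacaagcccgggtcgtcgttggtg

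On either strand, the Il2rg window held 1 GCGTG, at -41 to -37 from the start, the Irs2 window held 1, at -144 to -140, and the Jak2 window held 4, of which 2 adjoin each other. The Il13ra1 window held none. Over all 10 members, 6 windows held at least 1, against 32.4% of the 32851 promoters of that length. The other 2 motifs searched were the palindromic STAT6 site, which is TTC and GAA with 4 bases of any kind between them, and the STAT site with 3 such bases. Neither was in any of the 10 windows, and 6.95% and 8.3% of all promoters held them. The GC content of the windows was 81.0% for Jak2, 72.0% for Irs2, 71.0% for Il13ra1 and 50.3% for Il2rg. A match describes letters in this window and was not tested as a binding site.

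In wild-type monocytes 3 of the 10 genes rose with IL-4 (Jak2, Irs2, Ptpn6), 2 fell (Il13ra1, Il2rg) and 5 did not pass the test (edgeR quasi-likelihood F-test, adjusted p under 0.05 over all genes). Of all genes tested, 35.9% passed in that comparison, 19.4% up and 16.5% down, so the members' count is not far from the background. By the libraries themselves, 4 of the 10 did not overlap between medium and IL-4, against 33.2% of all genes. With the titles' numbers as a block, 4 rose and 2 fell, against 42.7% of all genes called (22.8% up and 19.9% down). The members' median log2 change was 0.03, against 0.01 over all genes. In AhR-deficient monocytes 2 rose (Jak2, Irs2), 3 fell (Il13ra1, Il2rg, Tyk2) and 5 did not pass, against 29.5% of all genes (15.4% up and 14.2% down). In 7 of the 10 the libraries did not overlap, against 43.7% of all genes. With the numbers as a block 3 rose and 3 fell, against 36.2% (18.4% up and 17.8% down). Here the median was 0.02, against -0.01 over all genes.

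**Figure D1:**
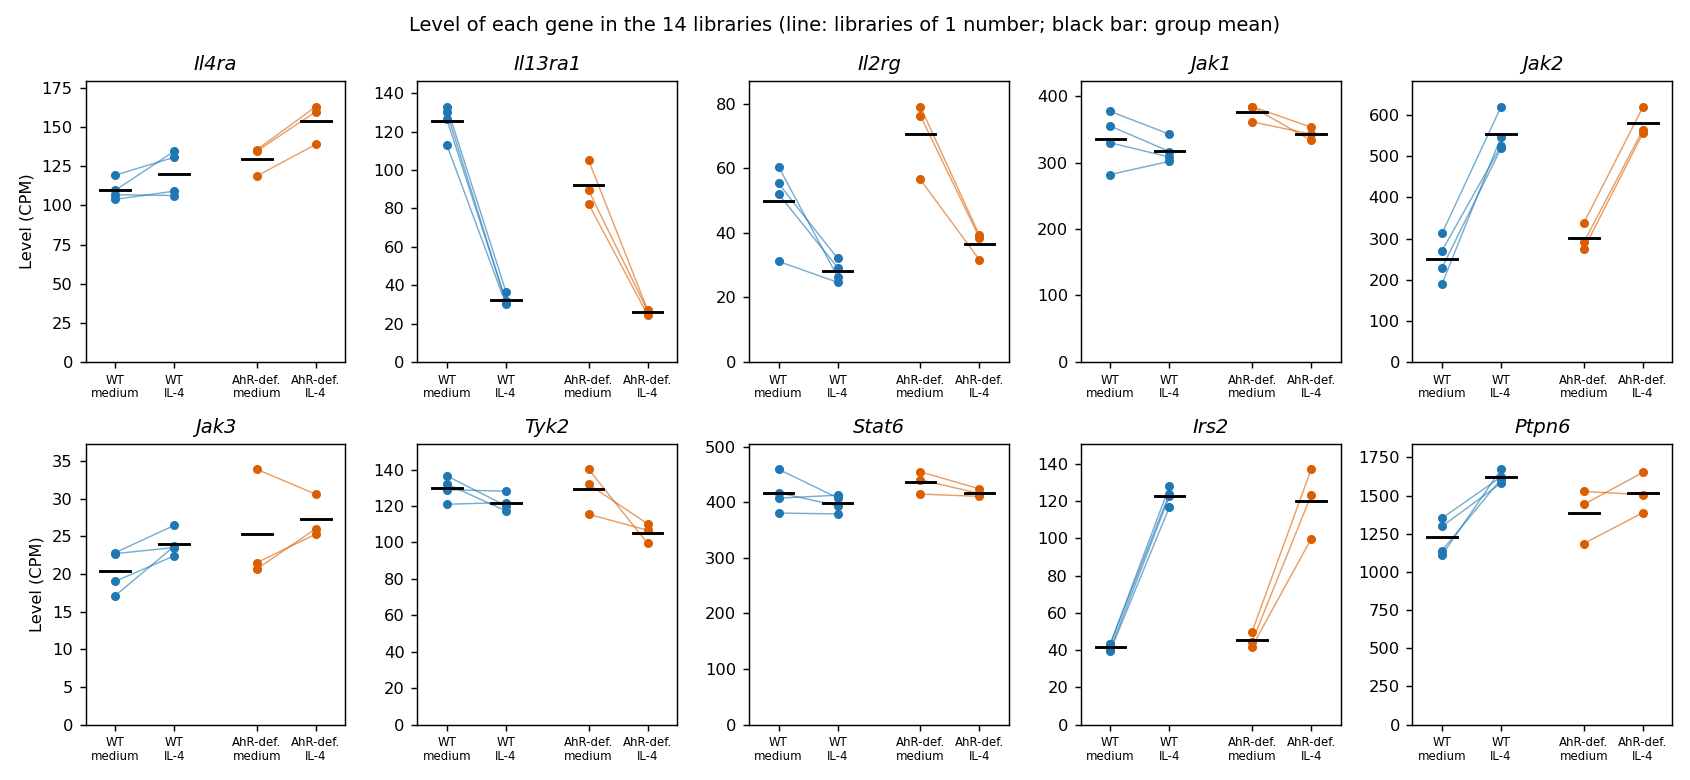
Level of each of the 10 genes in the 14 libraries, in CPM on linear axes that start at 0. Points are libraries, lines join libraries of 1 number, and black bars are group means. Il13ra1 was lower and Jak2 and Irs2 were higher in every IL-4 library than in any medium library of the same genotype.

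Il4ra, the chain shared by both receptor complexes, was near its medium level in wild type after IL-4. It was at 107, 104, 109.6 and 119 CPM in medium and at 106, 109, 135 and 131 CPM in IL-4 (numbers 1, 2, 3 and 7). The groups overlapped, and the log2 change of 0.13 ± 0.08 (SE) did not pass (edgeR, adjusted p = 0.268, 95% interval -0.05 to 0.31). With the numbers as a fixed block it did not pass either (edgeR, adjusted p = 0.0613), and 3 of the 4 numbers moved up. In AhR-deficient cells it was at 119, 136 and 135 CPM in medium and at 139, 163 and 160.0 CPM in IL-4 (numbers 4, 5 and 6). Every IL-4 library was above every medium library, and each of the 3 numbers moved up, by 0.23 to 0.27 on the log2 scale. The fitted change was 0.25 ± 0.10 (edgeR, adjusted p = 0.0708) and passed with the numbers as a fixed block (edgeR, adjusted p = 0.0049) and as a random block (limma-voom, adjusted p = 0.0155). A difference between the genotypes in this change did not pass its own test (interaction 0.12 ± 0.13, edgeR adjusted p = 0.9999).

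Il13ra1, the second chain of the type II receptor, showed the largest absolute log2 change of the 10 in both genotypes. In wild type it was at 126, 130.2, 113 and 133 CPM in medium and at 31.6, 31.5, 30.1 and 36.7 CPM in IL-4. The libraries of the groups lay far apart, at a fold of 0.258 (log2 change -1.95 ± 0.08, edgeR adjusted p = 4.45e-10). In AhR-deficient cells it was at 82.4, 89.4 and 105 CPM in medium and at 24.4, 26.5 and 26.9 CPM in IL-4. Again no library overlapped, at a fold of 0.281 (-1.83 ± 0.10, edgeR adjusted p = 6.67e-09).

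Il2rg, the γ chain of the type I receptor that other cytokine receptors also use, fell in both genotypes. Wild type was at 31.1, 52.0, 55.3 and 60.5 CPM in medium and at 24.6, 29.2, 32.0 and 26.3 CPM in IL-4. Number 1 in medium was low and lay inside the IL-4 range, so the groups overlapped, but all 4 numbers moved down. The log2 change was -0.83 ± 0.17 (edgeR, adjusted p = 0.0019). AhR-deficient cells were at 79.1, 56.5 and 76.3 CPM without and at 39.2, 31.6 and 38.5 CPM with IL-4. These groups did not overlap, and the log2 change was -0.96 ± 0.20 (edgeR, adjusted p = 0.0022). Il2rg shares 30.5% of its exon bases with Gm20489 on the same strand, which held 0 to 3 counts in each library. How the counting treated shared bases is not stated.

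The balance between Il2rg and Il13ra1 was followed as a ratio. Levels were divided by exon length to compare genes, and the log2 ratio of Il2rg to Il13ra1 was then -0.74 ± 0.45 (SD, n = 4) in wild type in medium and 0.42 ± 0.26 (SD, n = 4) in IL-4. The libraries of number 1, 2, 3 and 7 had ratios of 0.383, 0.621, 0.759 and 0.707 without IL-4 and of 1.21, 1.44, 1.66 and 1.12 with it. All medium libraries were below 1 and all IL-4 libraries above it. The ratio was 2.25 times higher in IL-4 (two-sided exact permutation test, p = 0.0286, the smallest that 4 against 4 allows). Libraries of 1 number are paired, and the paired exact sign-flip test gave p = 0.125, the smallest that 4 pairs allow, so the difference did not pass with the pairing. The unpaired test was the main one planned for the ratio. Exact p-values were afterwards computed for the other 3 comparisons too, and over all 4 the adjusted value was 0.0571, which missed 0.05. In AhR-deficient cells the ratios were 1.49, 0.982 and 1.13 without IL-4 and 2.50, 1.85 and 2.22 with it, 1.84 times higher, where 3 against 3 cannot go below an exact permutation p of 0.1. AhR-deficient libraries lay above all wild-type libraries of the same treatment, at mean log2 differences of 0.99 in medium (exact permutation p = 0.0286, 0.0571 over the 4) and 0.70 in IL-4 (exact permutation p = 0.0571, 0.0762 over the 4). Both of these genes are X-linked. With the longest annotated transcript as the length, the differences stayed as they were by construction, but the ratio in wild type in medium became 0.547, 0.887, 1.09 and 1.01, so which chain was higher in medium depends on the length used.

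**Figure D2:**
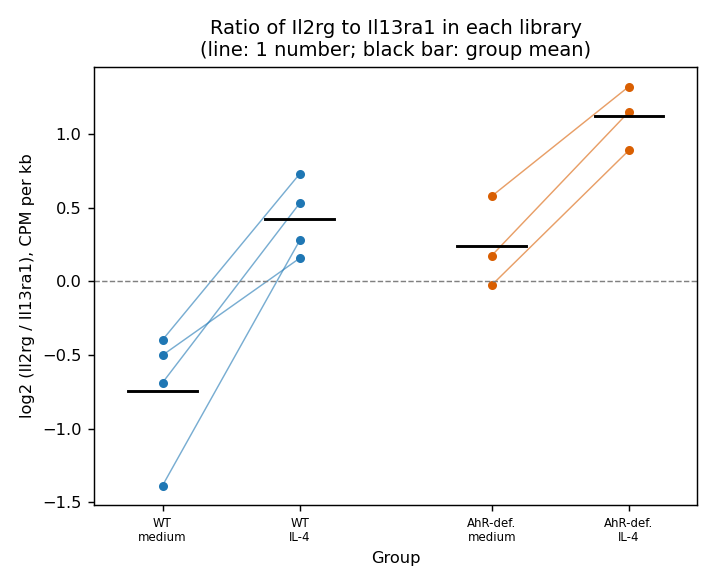
Log2 ratio of Il2rg to Il13ra1, each in CPM per kb of exon, in each library. Points are libraries, lines join libraries of 1 number, black bars are group means and the dashed line marks equal levels. Each of the 7 numbers was higher in IL-4, and wild type in medium was the group wholly below the line. With the longest transcript as the length, numbers 3 and 7 of that group had ratios of 1.09 and 1.01, above equal levels.

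Among the kinases, Jak2 alone rose in both genotypes. In wild type it was at 189.7, 229, 312 and 270.4 CPM in medium and at 547, 519.5, 621 and 526 CPM in IL-4. All IL-4 libraries were above all medium libraries, at 2.21-fold (log2 change 1.14 ± 0.12, edgeR adjusted p = 6.3e-06). AhR-deficient cells went from 338, 275 and 291 CPM to 619.7, 556 and 564 CPM, also with no overlap, at 1.93-fold (0.95 ± 0.14, edgeR adjusted p = 0.00018).

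Tyk2, the other kinase found with IL-13Rα1, was at 132, 129, 137 and 121 CPM in wild type in medium and at 117, 128, 120.1 and 122 CPM in IL-4. These overlapped, and the log2 change of -0.09 ± 0.06 did not pass (edgeR, adjusted p = 0.289). In AhR-deficient cells it was at 140.2, 115 and 132 CPM in medium and at 99.5, 107 and 110.2 CPM in IL-4. Those groups did not overlap and Tyk2 fell by 0.29 ± 0.07 on the log2 scale (edgeR, adjusted p = 0.0057). That the genotypes differed in this change did not pass its own test (interaction -0.20 ± 0.09, edgeR unadjusted p = 0.0465, adjusted p = 0.9999).

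Jak1, which binds IL-4Rα, ran from 282 to 377 CPM in wild type in medium and from 302 to 343 CPM in IL-4. Its log2 change of -0.08 ± 0.07 did not pass (edgeR, adjusted p = 0.439), nor did that of -0.13 ± 0.09 in AhR-deficient cells (edgeR, adjusted p = 0.282). The AhR-deficient libraries ran from 361 to 384 CPM in medium and from 333 to 353 CPM in IL-4. They did not overlap, and all 3 numbers moved down. Wild-type number 1 in medium was the lowest library, and without it the wild-type change was -0.16 (edgeR, adjusted p = 0.0420). Jak3, the kinase of the γ chain, was the least abundant kinase, at 17.1 to 22.8 CPM in wild type in medium and 22.4 to 26.4 CPM in IL-4. All 4 numbers moved up, by 0.05 to 0.47 on the log2 scale. The fitted change of 0.23 ± 0.14 did not pass (edgeR, adjusted p = 0.239), but passed with the numbers as a fixed block (edgeR, adjusted p = 0.0415) and not with them as a random block (limma-voom, adjusted p = 0.0969). In AhR-deficient cells Jak3 was at 33.9, 20.6 and 21.5 CPM in medium, number 4 standing above the others, and at 30.6, 26.0 and 25.3 CPM in IL-4. Its change there was 0.11 ± 0.17 (edgeR, adjusted p = 0.697), and without number 4 in medium it was 0.37 (edgeR, adjusted p = 0.0461).

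Stat6, the transcription factor that all of these feed, did not pass in either genotype. Wild type was at 381, 417, 407 and 459 CPM in medium and at 379, 394, 413 and 408 CPM in IL-4. The groups overlapped, and the log2 change was -0.06 ± 0.06 (edgeR, adjusted p = 0.426), with a 95% interval of -0.18 to 0.06. In AhR-deficient cells it was -0.07 ± 0.06 (edgeR, adjusted p = 0.49). Stat6 shares 40 exon bases with Nab2 on the opposite strand. Nab2 held 1393 to 2373 counts in wild type in medium and 6644 to 7489 in IL-4, and the strand setting of the counting is not stated.

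Irs2, the adaptor that links the receptor to phosphoinositide 3-kinase, was the member that rose most. In wild type it was at 43.4, 39.6, 43.2 and 40.5 CPM in medium and at 124, 117, 128 and 123 CPM in IL-4. The groups were narrow and far apart, at 2.95-fold (log2 change 1.56 ± 0.08, edgeR adjusted p = 5.4e-09). AhR-deficient cells went from 41.9, 49.9 and 44.5 CPM to 99.8, 137 and 123 CPM, at 2.64-fold (1.40 ± 0.10, edgeR adjusted p = 1.1e-07). Its relative Irs1 was not tested, having 19 counts in all libraries together.

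Ptpn6 encodes SHP-1, a tyrosine phosphatase that dampens cytokine receptor signalling. In wild type it was at 1111, 1140.0, 1352 and 1298 CPM in medium and at 1672, 1608, 1622 and 1582 CPM in IL-4. No library overlapped, at 1.32-fold (log2 change 0.40 ± 0.08, edgeR adjusted p = 0.0018). Without numbers 1 and 2, the lower medium libraries, the change was 0.27 and did not pass (edgeR, adjusted p = 0.113). AhR-deficient cells were at 1527, 1186 and 1442 CPM in medium and at 1506, 1388 and 1651 CPM in IL-4. These overlapped, 2 of 3 numbers moved up, and the change was 0.13 ± 0.10 (edgeR, adjusted p = 0.369). The difference between the genotypes' changes was -0.27 ± 0.13 and did not pass (edgeR, unadjusted p = 0.0516, adjusted p = 0.9999).

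**Figure D3:**
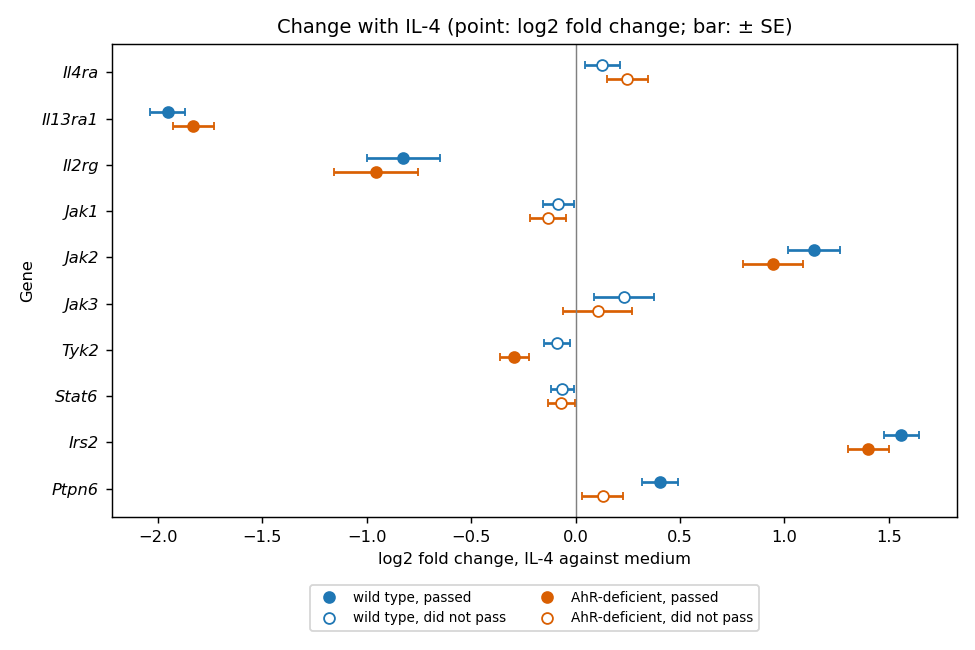
Log2 change of each gene with IL-4 against medium in wild type (blue) and AhR-deficient (orange). Points are edgeR estimates, bars are ± 1 SE, and filled points passed an adjusted p under 0.05. Il13ra1 lies near -1.95 and -1.83, Irs2 near 1.56 and 1.40, and Stat6 and Jak1 lie near 0.

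Per kb of exon, Ptpn6 was the highest and Jak3 the lowest of the 10 in every group. Ptpn6 averaged 437 ± 42.1 CPM per kb (SD, n = 4) in wild type in medium, 4.63 times the next gene, Stat6, at 94.5 ± 7.43. Behind Stat6 came Jak2, Jak1, Il13ra1, Il2rg, Tyk2, Il4ra and Irs2, with Jak3 at 3.81 ± 0.53. The libraries of Jak2 and Jak1 overlapped, as did those of Il2rg and Tyk2 and of Tyk2 and Il4ra, so their order is not set. The other neighbours in that order did not overlap. With the longest transcript as the length, Il13ra1 and Il2rg overlapped too, at 30.5 to 35.9 and 18.6 to 36.2 CPM per kb.

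In IL-4 the order changed. Jak2 averaged 109.99 ± 9.26 CPM per kb in wild type and stood above Stat6, at 90.5 ± 3.46, with no overlap. Il13ra1 went from the fifth to the ninth place, at 8.74 ± 0.78 CPM per kb, below Il2rg at 11.8 ± 1.37. Irs2 reached 19.4 ± 0.73 CPM per kb and overlapped Il4ra and Tyk2. Among the receptor chains Il4ra was then the highest, at 20.0 ± 2.42 CPM per kb, whereas in medium it was the lowest mean of the 3. In AhR-deficient cells Jak2 likewise stood above Stat6 in IL-4, and Il13ra1 was again the ninth, at 6.99 ± 0.37 CPM per kb (SD, n = 3). In medium their Il2rg, at 29.6 ± 5.16 CPM per kb, and Il13ra1, at 24.9 ± 3.14, overlapped. With the longest transcript as the length these 2 genes did not overlap there, Il2rg being at 33.8 or more and Il13ra1 at 28.3 or less.

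**Figure D4:**
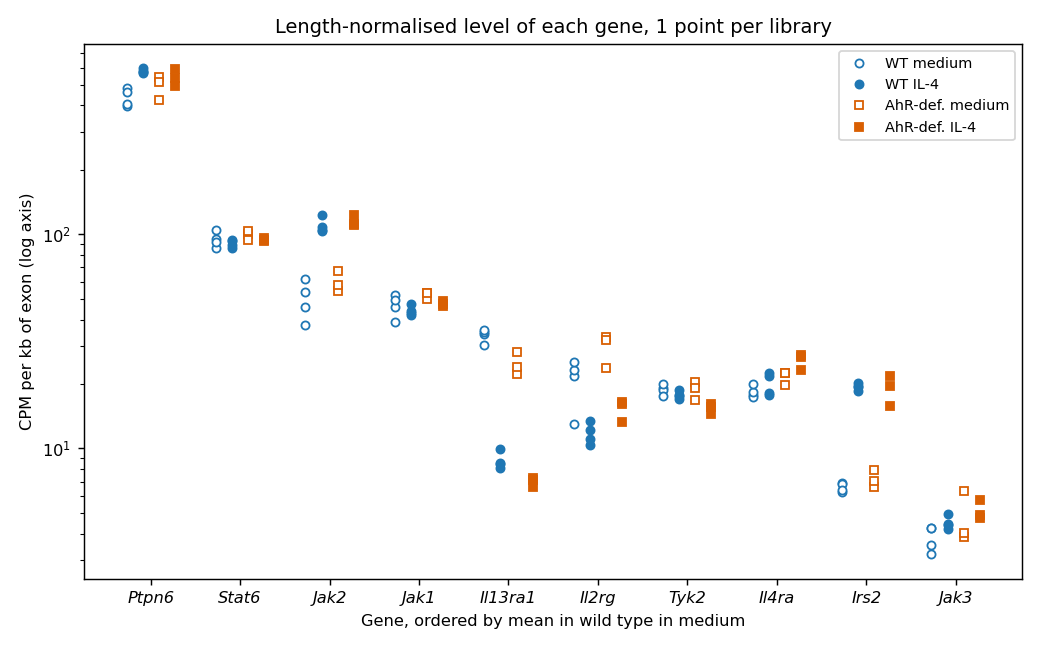
Length-normalised level (CPM per kb of exon, log axis) of each gene in each library, 1 point per library, with the genes ordered by their mean in wild type in medium. Ptpn6 is the highest and Jak3 the lowest gene in every group, and Jak2 stands above Stat6 in IL-4.

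Without IL-4, 1 of the 10 genes differed between the genotypes, against 8.11% of all genes tested (4.16% up and 3.95% down). It was also the 1 member whose libraries did not overlap, against 20.0% of all genes. Il13ra1 was lower in AhR-deficient cells, with all 3 libraries (82.4 to 105 CPM) below the 4 wild-type libraries (113 to 133 CPM), at a fold of 0.734 (log2 difference -0.45 ± 0.09, edgeR adjusted p = 0.0122). The call was lost without number 4 in AhR-deficient medium (-0.37, edgeR adjusted p = 0.0792), with the model fitted to these groups only (-0.46, edgeR adjusted p = 0.0675) and without numbers 1 and 2 (-0.42, edgeR adjusted p = 0.158). Il2rg and Il4ra had higher means in AhR-deficient cells, by 0.51 ± 0.18 and 0.24 ± 0.09 on the log2 scale, and did not pass (edgeR, adjusted p = 0.0991 and 0.111). DESeq2 called Il2rg as well (adjusted p = 0.0418), against 16% of the genes it gave an adjusted p. The members' median difference was 0.17, against 0.01 over all genes.

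In IL-4, 0 of the 10 differed by edgeR (3 at an unadjusted p under 0.05), against 1.62% of all genes (0.956% up and 0.664% down), while DESeq2 called 2 and limma-voom with the numbers as a random block called 1, against 6.29% of the genes it gave an adjusted p and 2.85% of all genes. The libraries of 3 members did not overlap, against 18.2% of all genes. Il4ra was at 139 to 163 CPM in AhR-deficient cells and at 106 to 135 CPM in wild type, with no overlap. Its log2 difference of 0.36 ± 0.09 had an edgeR adjusted p of 0.0601 and a DESeq2 adjusted p of 0.0072. Il13ra1 was at 24.4 to 26.9 CPM against 30.1 to 36.7 CPM, also with no overlap (-0.32 ± 0.09, edgeR adjusted p = 0.0853, DESeq2 adjusted p = 0.0367). Tyk2 was at 99.5 to 110.2 CPM against 117 to 128 CPM (-0.21 ± 0.07, edgeR adjusted p = 0.118). The comparisons between genotypes share libraries with the IL-4 responses, so none of these values is independent of the others.

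Other measures were set beside the genotype differences, and their part in them was not tested. In medium 0 of 11 neutrophil, 0 of 3 B and plasma cell and 0 of 6 T and NK cell markers tested passed between genotypes (edgeR). Nor did any of 6 erythroid and 5 stromal markers. Of 10 monocyte markers 1 was higher and 1 lower in AhR-deficient cells, and of 6 dendritic cell markers 1 was higher. The share of all genes was 8.11%. In IL-4 the monocyte and dendritic cell counts were the same, and 1 of 6 T and NK cell markers was lower. No marker of the other lists passed there, against 1.62% of all genes. Il13ra1 and Il2rg are X-linked. Of 436 X-linked genes tested 19 were higher and 22 lower in AhR-deficient cells in medium, with a median log2 difference of 0.00. Among 14318 other genes 595 were higher and 561 lower. In IL-4 11 of the X-linked genes were higher and 4 lower, against 130 higher and 94 lower of the others. The summed level of 11 neutrophil markers in medium was 476 to 1177 CPM for wild type and 419 to 769 CPM for AhR-deficient, all 11 being detected in every library. The 8 B and plasma cell markers summed to 9.44 to 33.2 CPM and 40.3 to 68.0 CPM, 3 of them detected in every library, and Jchain, the immunoglobulin joining chain, reached 68.6 CPM while Pax5 stayed at 0.339 CPM or less. The 9 T and NK cell markers, types known for Il2rg and Jak3, summed to at most 5.52 CPM in any library. In medium the 9 eosinophil and basophil or mast cell markers summed to 118 to 353 CPM in wild type and 60.2 to 203 CPM in AhR-deficient. Their median log2 difference was -0.52, and 0 of the 9 passed (edgeR). In medium that median was -0.61 for neutrophil, -0.45 for stromal, -0.44 for erythroid and -0.34 for T and NK cell markers. It was 0.54 for B and plasma cell, 0.25 for dendritic cell and 0.11 for monocyte markers. In bulk RNA, fewer cells of a type and less RNA per cell cannot be told apart.

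**Figure D5:**
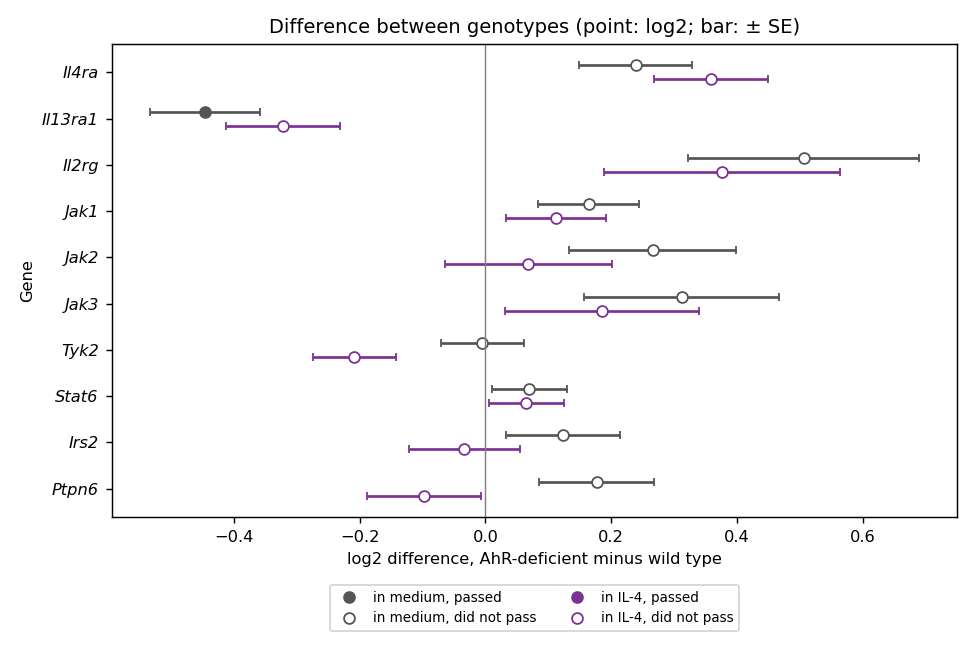
Log2 difference of each gene between genotypes, AhR-deficient minus wild type, in medium (grey) and in IL-4 (purple). Points are edgeR estimates, bars are ± 1 SE, and filled points passed an adjusted p under 0.05. The single filled point is Il13ra1 in medium, at -0.45.

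For no member did the difference in IL-4 response between the genotypes pass (edgeR, 0 of 10 at adjusted p under 0.05, 1 at an unadjusted p under 0.05, and 0 by DESeq2 or limma-voom), and 0% of all genes passed that interaction by edgeR. The estimates ran from -0.27 for Ptpn6 to 0.12 for Il13ra1. For Stat6 the 95% interval of the difference was -0.19 to 0.18, and for Irs2 it was -0.43 to 0.12.

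The other genes of the pathway were followed as a list of 44 ligands, adaptors, phosphatases, inhibitors and STAT partners, of which 42 were tested. In wild type 14 rose with IL-4, 8 fell and 20 did not pass, with a median log2 change of 0.01. Of all genes tested, 19.4% rose and 16.5% fell there. In AhR-deficient cells 13 rose, 7 fell and 22 did not pass, against 15.4% up and 14.2% down of all genes. The suppressors and adaptors led the rises. Socs1, an inhibitor of JAK kinases, went from 0.678 ± 0.302 to 130.3 ± 24.0 CPM (SD, n = 4) in wild type (log2 change 7.57 ± 0.20, edgeR adjusted p = 6.8e-12). Cish, a STAT5-induced inhibitor of the same family, went from 3.77 ± 1.01 to 272 ± 23.1 CPM. Dok2, an adaptor that restrains tyrosine kinase signalling, went from 8.76 ± 1.09 to 94.6 ± 13.4 CPM, and Socs5 from 20.1 ± 0.97 to 55.0 ± 3.76 CPM.

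The falls were led by phosphoinositide 3-kinase subunits. In wild type the catalytic subunit gene Pik3cg fell by 0.97 ± 0.07 on the log2 scale, its regulatory partner Pik3r5 fell by 1.19 ± 0.17 and Pik3cb fell by 0.40 ± 0.07 (edgeR, adjusted p = 1.1e-07, 6.9e-05 and 0.00042). Pik3cd and Pik3r1, the δ catalytic and a regulatory subunit, rose instead, by 0.24 ± 0.06 and 0.61 ± 0.06. Dok1, related to Dok2, fell by 0.41 ± 0.06 (edgeR, adjusted p = 0.00013). In AhR-deficient cells the same 4 genes led the rises and the same 4 the falls, Socs1 at 7.02 ± 0.22 and Pik3r5 at -1.25 ± 0.19 on the log2 scale.

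Between genotypes 3 of the 42 passed in medium, against 8.11% of all genes, and 2 in IL-4, against 1.62%. In medium Ptpn1, a phosphatase of JAK kinases, was higher in AhR-deficient cells (0.44 ± 0.11, edgeR adjusted p = 0.0325) and Pik3cd lower (-0.30 ± 0.06, edgeR adjusted p = 0.0166). In IL-4 Pik3r1 was lower (-0.28 ± 0.06, edgeR adjusted p = 0.0438). The ligands were at low levels: Il4 averaged 0.212 ± 0.074 CPM in wild type in medium, and Il13, which passed as higher in AhR-deficient cells with and without IL-4, averaged 0.138 ± 0.093 CPM for wild type and 0.467 ± 0.096 CPM for AhR-deficient in medium. Il13ra2, the decoy receptor for IL-13, had 0 counts in all 14 libraries.

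Other cytokine receptor chains moved in both directions as well. Of 28 listed, 26 were tested, and in wild type 7 rose, 4 fell and 15 did not pass. In AhR-deficient cells 9 rose, 4 fell and 13 did not pass. The shares of all genes were 19.4% up and 16.5% down in wild type, and 15.4% and 14.2% in AhR-deficient cells. Lifr, the leukaemia inhibitory factor receptor, rose by 2.49 ± 0.11 on the log2 scale in wild type, and Il6st, which encodes its partner gp130, rose by 0.81 ± 0.08. Il12rb2, a chain of the IL-12 receptor, rose by 1.32 ± 0.20. Both chains of the type I interferon receptor fell, Ifnar1 by 0.70 ± 0.09 and Ifnar2 by 0.38 ± 0.05. Il21r, whose product pairs with the common γ chain, fell by 0.90 ± 0.19 (edgeR, adjusted p = 0.0017). In AhR-deficient cells its change of -0.49 ± 0.21 did not pass (edgeR, adjusted p = 0.101), but passed with the numbers as a fixed block (edgeR, adjusted p = 0.00011). Without the block, Il2ra, Il2rb, Il9r and Il15ra passed in neither genotype. Il7r did not pass in wild type and rose by 0.94 ± 0.28 in AhR-deficient cells (edgeR, adjusted p = 0.0208). In medium 6 of the 26 were higher and 2 lower in AhR-deficient cells, against 4.16% and 3.95% of all genes. In IL-4 4 were higher and 0 lower, against 0.956% and 0.664% of all genes.

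For the 4 members that passed in both genotypes, the genes with the most similar log2 CPM over the 14 libraries were listed by Pearson r among 9965 candidates, as a description. The 14 points fall into medium and IL-4 libraries, so any gene with a clear IL-4 response can score high, and 404 to 785 candidates had an r above 0.9. Il13ra1 was most like Sephs2 (r = 0.989), Dcaf12 (0.989) and Lyn (0.985), which also fell. Il2rg was most like Nfkb2 (0.991), Mmp14 (0.989) and Sqstm1 (0.987). Jak2 was most like Imp4 (0.990), the IL-1 receptor gene Il1r1 (0.989) and Cdk6 (0.987). Irs2 was most like Nol6 (0.993), Pcyox1l (0.992) and Flot1 (0.991).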

How the data were processed

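Messenger RNA of 14 bone marrow monocyte libraries was made into stranded libraries and sequenced as paired 100-nt reads, per the labels' protocols. The authors deposited whole-number read counts per gene. The submitters' processing notes name FastQC, STAR and mm10. The sources used here do not give the counting program, its strand setting or the annotation release. Identifiers matched GENCODE M21 (GRCm38) in 55094 of 55487 cases with their version and in 55394 without it, which gave symbols, positions and exon lengths. All 14 columns matched a sample by its description, and groups came from the titles. The members and lists were chosen with earlier results of these data known.

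Counts were fitted in R 4.3.3 with edgeR 4.0.16 (filterByExpr, 14754 genes, TMM scaling, 1 mean per group, 14 libraries, 10 residual degrees of freedom). The quasi-likelihood F-test was applied to each contrast, with Benjamini-Hochberg adjustment over all genes and calls at an adjusted p under 0.05. CPM values are TMM-scaled, and SE is the log2 change divided by the square root of F. Replicates of a group differed by more than counting noise (chi-square per degree of freedom 13.8 to 60.2). Libraries of the same number deviated together from their group means (r of 0.17 to 0.71 over 10575 genes, each closest to its own number in 7 of 7), so the titles' numbers were used as a block. Wild-type and AhR-deficient libraries share no number, which bars a fixed block between genotypes, and limma-voom (limma 3.58.1) with a random block was used there. The ratio of Il2rg to Il13ra1 was tested by exact permutation.

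All 10 members were named, with the genes of smallest adjusted p in the other lists (up to 4 a direction for the pathway, 3 for receptors). Among alternatives were DESeq2 1.42.0, limma-voom, other scalings and filters, fewer groups in the model, and libraries left out. The test was checked on data simulated with independent libraries, so the check does not cover libraries that are paired by number. Promoters came from RefSeq (GRCm38.p6), and all 10 members matched.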

Additional observations from a re-analysis of the deposited data

How the results depend on the processing

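In both IL-4 responses the member counts stayed within 1.5 times under every alternative run (5 in each as fitted, 4 to 6 otherwise), and no member's direction reversed past the threshold. The block on the titles' numbers gave 4 up and 2 down in wild type (42.7% of all genes called) and 3 up and 3 down in AhR-deficient (36.2%). Beside Jak3 in wild type and Il4ra in AhR-deficient cells, it changed no other member's call in those responses.

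The genotype comparisons were less stable. In medium the 1 member called became 2 with DESeq2 (Il2rg added, adjusted p = 0.0418), 0 with only the groups compared, and 0 without numbers 1 and 2. Leaving out single libraries gave 0 (without AhR-deficient medium number 4) to 2 (without wild-type medium number 3, with Jak2 added, edgeR adjusted p = 0.0482). In IL-4 the count of 0 became 2 with DESeq2, 1 with no filter and 1 with the random block (Il4ra, limma-voom adjusted p = 0.0372). Leaving out single libraries gave 0 to 1 (Il4ra without wild-type IL-4 number 3, edgeR adjusted p = 0.0378). The ratio difference of 1.17 had an exact sign-flip p of 0.125 with the replicate block, the smallest that 4 pairs allow, and ran from 0.95 to 1.28 with single libraries left out. The causes were not tested.

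All-gene counts in medium were 1197 as fitted, 1990 by DESeq2, 54 with only the groups compared and 30 without numbers 1 and 2. Leaving out 1 library took them as low as 94 (AhR-deficient number 4). In IL-4 they were 239, 802, 473 and 25 in the same order, 361 with no filter and 420 with the random block, and as low as 24 without AhR-deficient number 4. With the longest transcript as the length, 28 of the group levels moved by more than their SD. The member with the lowest counts in wild type in medium, Jak3, had at least 620 in every library.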
